A study of Mus musculus with 3 samples.

Results

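The 10 genes described here encode antioxidant enzymes. They are the glutathione peroxidases Gpx1, Gpx3, Gpx4, Gpx7 and Gpx8, the superoxide dismutases Sod1, Sod2 and Sod3, catalase (Cat) and heme oxygenase 1 (Hmox1). They were picked by symbol from the 19938 mouse genes that had a probe set of their own, and each gene's probe set was selected on its measured values, as the one with the highest mean log2 intensity over the 3 arrays. All 10 genes were measured, by 11 probe sets. A second probe set existed for Gpx4 alone; its mean of 6.41 lay just under the 6.66 of the one used.

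Superoxide leaks from the respiratory chain and is made by phagocyte oxidases; superoxide dismutases turn it into hydrogen peroxide. Sod2 works in mitochondria, Sod1 in the cytosol and Sod3 outside the cell. Catalase, in peroxisomes, and the glutathione peroxidases then reduce the peroxide. Gpx1, Gpx3 and Gpx4 carry selenocysteine in the active site; Gpx7 and Gpx8 carry cysteine and sit in the endoplasmic reticulum, where oxidative protein folding makes peroxide. Hmox1 opens the heme ring and is a standard target of the stress regulator NRF2. In bone marrow, the redox state of the niche is known to bear on the quiescence of hematopoietic stem cells.

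The study compared stromal populations of tibia, femur and pelvis at baseline. CXCL12-abundant reticular (CAR) cells were sorted from 2 CXCL12-GFP knock-in mice, giving 2 arrays; PDGFRa+ Sca+ cells without CD45 or lineage antigens (PaS) were sorted from Prx1-Cre Rosa26Ai9/+ Cxcl12gfp/+ mice, and 3 mice were combined on 1 array. Prx1-Cre is active in limb mesenchyme, the Ai9 allele is a Cre-dependent red reporter, and all mice carried GFP at Cxcl12. Ages were not analysed here. Genotype and sorted population differed together and cannot be told apart, and the pooled side had no replicate. Genes of the sort itself went against the label of the pooled array: Pdgfra stood at 4.33 there and at 7.52 and 7.97 on the CAR arrays, Ptprc (CD45) at 8.27 against 5.11 and 5.01, and Ly6a (Sca-1) was not measured by a single-gene probe set. All 15 measured CAR stroma markers, Cxcl12 among them, were higher on the CAR arrays. Of the markers of other cells, 11 of 15 neutrophil, 8 of 10 leukocyte, 6 of 9 B lymphoid, 5 of 15 macrophage, 4 of 10 endothelial and 1 of 11 erythroid genes were called lower on the CAR arrays, and 1 of all these, Mertk of the macrophage list, was called higher. Stromal lists that suit the label lay toward the pooled array: 8 of 12 Sca-1+ fibroblast genes (summed intensities of 607 and 909 on the CAR arrays against 4741) and 4 of 10 chondrocyte and synovial genes (191 and 223 against 1885) were called lower on the CAR arrays, and Pdgfra alone of them was called higher. No marker was at 0 on any array. The pooled array is therefore called "the array labelled PaS".

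Values are on the scale of log2 intensity, where 1 unit is a 2-fold difference. In limma's moderated test over all 19938 genes, with a Benjamini-Hochberg adjusted p under 0.05 as a call, 3 of the 10 enzymes (Gpx8, Gpx3 and Sod2) were called higher in CAR cells and 0 lower; over all genes 8.56% were called higher and 6.42% lower. With quantile normalization the same 3 were called higher and 2 (Gpx1 and Sod3) lower, and with a pseudocount of 16 no gene at all was called. At least 2-fold higher in both CAR arrays were 4 enzymes (the 3 above and Cat), against 10.9% of all genes, and 0 were at least 2-fold lower in both, against 8.92%. Both CAR arrays lay above the array labelled PaS for 7 enzymes and below it for 2, against 37.4% and 46.8% of all genes. The median difference was 0.88 over the 10 enzymes and −0.10 over all genes. All 10 enzymes were among the 9969 genes with a mean at or above the median level. In a fit of those 9969 genes alone, 2062 genes were called higher and 510 lower, and 4 and 0 of the enzymes. At least 2-fold higher in both CAR arrays were 2080 of these genes, 531 were at least 2-fold lower, and their median difference was 0.37. At an unadjusted p under 0.05, 6 enzymes and 35.1% of all genes passed. In bulk samples, fewer cells of a type and less RNA per cell cannot be told apart.

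**Figure D1:**
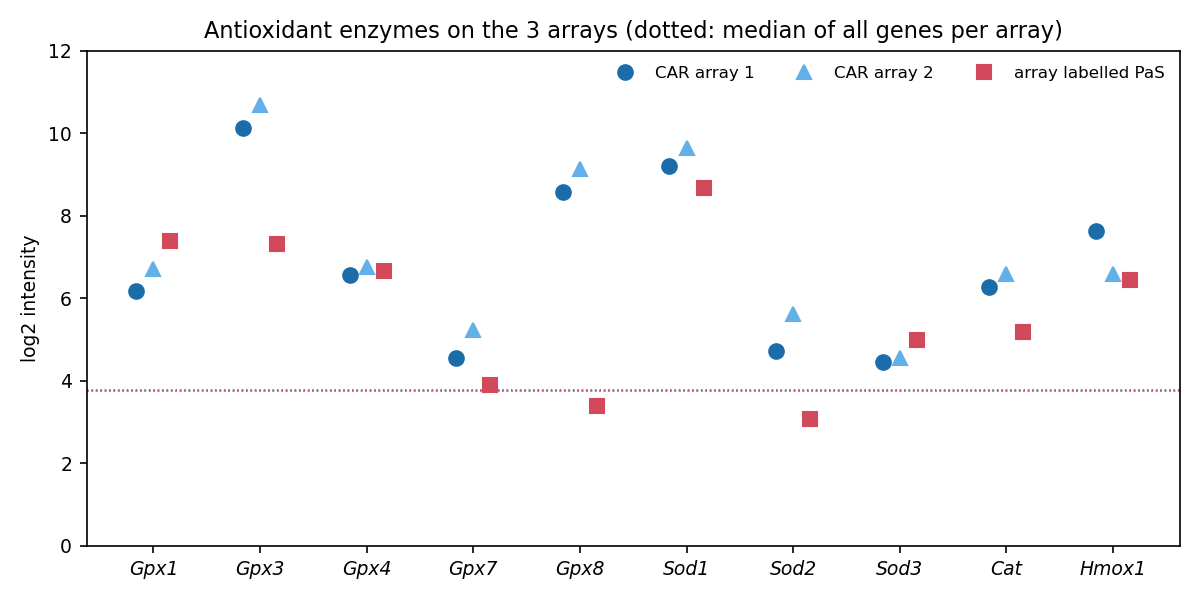
Log2 intensity of the 10 enzymes on CAR array 1 (circles), CAR array 2 (triangles) and the array labelled PaS (squares), with dotted lines at the median of all genes on each array. Gpx8 and Sod2 lie below the median line on the array labelled PaS, at 3.39 and 3.08, and well above it on both CAR arrays.

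Among the glutathione peroxidases, Gpx8 had the largest difference. Its log2 intensity was 8.58 and 9.14 on the CAR arrays and 3.39 on the array labelled PaS. The CAR values were at percentiles 99.2 and 99.4 of all genes on their arrays, whereas the PaS value sat at percentile 34.1, in the range where signal cannot be told from background here. The measured difference was 5.47 ± 0.35 on the log2 scale (SE; limma adjusted p = 0.00812), and its exact size is uncertain for that reason. With values under an array's median raised to that median, a setting added after seeing the data, the difference was 5.09. With the pseudocount of 16 the difference was 4.18 and no longer called (adjusted p = 0.0575).

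Gpx3, the secreted peroxidase of plasma and extracellular fluid, was bright everywhere. It stood at 10.12 and 10.69 on the CAR arrays (intensities of 1110 and 1651) and at 7.32 (159) on the array labelled PaS. The CAR arrays were both at percentile 99.9 and the array labelled PaS at 98.2, so that both sides of the 8.50-fold difference were far above the median of genes. The difference was 3.09 ± 0.35 (SE; limma adjusted p = 0.0149). It was 2.80 with CAR array 1 alone and 3.37 with CAR array 2 alone, and lost its call with the pseudocount (adjusted p = 0.0698).

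The start-site regions of these genes were read from the RefSeq promoter table, which holds 300 bases per start, 250 before and 50 after it, on GRCm38.p6. It held windows for 8 of the 10 genes (all but Sod3 and Hmox1), 11 windows in all, because Gpx4 has 4 starts. Each was searched on both strands for TGACNNNGC, the core of the antioxidant response element bound by NRF2, for the AP-1 site TGACTCA, which can overlap it, for the FOXO site TGTTTAC and for ACGTG, the core of the hypoxia response element. Of all 32851 windows, 12.4%, 5.20%, 3.65% and 19.6% held them. The 3 called genes are shown because they were higher together, and Gpx1 because it holds the same short core as Gpx8 while its arrays lay the other way; capitals mark ACGTG or its reverse complement.
Gpx8 promoter, GRCm38.p6 chr13:113046339-113046638, minus strand: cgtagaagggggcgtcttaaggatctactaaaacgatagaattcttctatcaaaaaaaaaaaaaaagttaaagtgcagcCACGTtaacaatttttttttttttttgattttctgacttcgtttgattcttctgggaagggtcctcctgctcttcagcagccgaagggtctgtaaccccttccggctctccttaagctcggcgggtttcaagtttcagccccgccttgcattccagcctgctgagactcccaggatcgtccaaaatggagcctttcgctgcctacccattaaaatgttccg
Gpx3 promoter, GRCm38.p6 chr11:54902604-54902903, plus strand: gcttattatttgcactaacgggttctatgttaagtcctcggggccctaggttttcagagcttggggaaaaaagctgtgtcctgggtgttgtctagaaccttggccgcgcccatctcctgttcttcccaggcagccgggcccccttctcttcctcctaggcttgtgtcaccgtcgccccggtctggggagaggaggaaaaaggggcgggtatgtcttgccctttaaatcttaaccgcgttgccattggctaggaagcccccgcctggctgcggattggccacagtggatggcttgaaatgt
Sod2 promoter, GRCm38.p6 chr17:13007589-13007888, plus strand: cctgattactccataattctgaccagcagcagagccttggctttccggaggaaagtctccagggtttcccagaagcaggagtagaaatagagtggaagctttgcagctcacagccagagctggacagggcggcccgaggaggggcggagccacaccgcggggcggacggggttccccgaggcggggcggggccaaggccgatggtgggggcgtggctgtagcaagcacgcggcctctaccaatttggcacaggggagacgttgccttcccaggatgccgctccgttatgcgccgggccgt
Gpx1 promoter, GRCm38.p6 chr9:108338830-108339129, plus strand: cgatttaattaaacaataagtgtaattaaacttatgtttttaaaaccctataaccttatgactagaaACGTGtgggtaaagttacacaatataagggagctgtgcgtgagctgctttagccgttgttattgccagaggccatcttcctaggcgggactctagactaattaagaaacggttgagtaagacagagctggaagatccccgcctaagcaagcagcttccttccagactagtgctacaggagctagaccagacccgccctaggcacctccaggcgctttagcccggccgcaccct

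Gpx8 and Gpx1 each held 1 hypoxia core, starting 171 and 183 bases before the start site, and no member window held the AP-1 or the FOXO letters. The antioxidant core occurred once, in Sod1 as GCGTGGTCA on the reverse strand, 56 bases before the start. The Gpx3 and Sod2 windows held none of the 4 motifs. GC content was 45.3% for Gpx8, 47.0% for Gpx1, 56.3% for Gpx3 and 64.3% for Sod2, against a median of 52.7% over all windows. A match in so short a window describes letters only.

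The remaining peroxidases were not called. Gpx1, the abundant cytosolic enzyme, was at 6.18 and 6.70 on the CAR arrays and at 7.39 on the array labelled PaS. Both CAR values were the lower ones, and the 95% interval of the difference of −0.95 ran from −1.81 to −0.08 (limma adjusted p = 0.119). Quantile normalization gave −1.32 and a call (adjusted p = 0.0130). Blood cell markers lay the same way: the 15 neutrophil genes summed to intensities of 3449 and 3139 on the CAR arrays against 18246 on the array labelled PaS, and the 10 leukocyte genes to 602 and 861 against 3282. Their part in the Gpx1 value was not tested.

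Gpx4, which reduces lipid peroxides inside membranes and guards against ferroptosis, was at 6.57 and 6.76 on the CAR arrays and at 6.65 on the array labelled PaS. That last value lay between the CAR arrays. The difference of 0.01 had a 95% interval from −0.72 to 0.74 (limma adjusted p = 0.979). Its second probe set gave the same difference to 2 decimals. The sign was not stable: quantile normalization gave −0.48, and CAR array 1 alone gave −0.081.

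Gpx7, like Gpx8 a peroxidase of the endoplasmic reticulum, was at 4.55 and 5.23 on the CAR arrays and at 3.88 on the array labelled PaS, close to that array's median of 3.77. Both CAR values were above the pooled one. The difference was 1.01 with a 95% interval from 0.04 to 1.97 and was not called (limma adjusted p = 0.130), nor was it under any alternative tested. The intervals of Gpx8 (4.58 to 6.35) and Gpx7 did not overlap, although the proteins share a compartment; a test between the genes was not made.

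Of the superoxide dismutases, mitochondrial Sod2 was called. It was at 4.73 and 5.61 on the CAR arrays and at 3.08 on the array labelled PaS, below the lower quartile of genes there, 3.16. The CAR arrays themselves were 0.89 apart, more than the 90th percentile of that gap over all genes, 0.72. The Sod2 value on the array labelled PaS, at percentile 21.9, also cannot be told from background here, which leaves the size uncertain. The measured difference was 2.09 ± 0.44 (SE; limma adjusted p = 0.0402), or 1.64 and 2.53 with CAR array 1 or 2 alone. It was 1.40 with values under an array's median raised to it and 1.10 with the pseudocount, where the call was lost (adjusted p = 0.173).

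Sod1, the copper and zinc enzyme of the cytosol, was among the brightest genes on every array, at 9.22 and 9.64 on the CAR arrays and 8.68 on the array labelled PaS, at percentiles of 99.5, 99.6 and 99.5. Both CAR values were higher, but the difference of 0.75 had an interval from −0.07 to 1.56 and was not called (limma adjusted p = 0.168). Sod3, the extracellular enzyme, was at 4.46 and 4.55 against 4.98. Its CAR arrays were 0.10 apart and both below the pooled array; the difference of −0.47 (interval −1.19 to 0.24) was not called (limma adjusted p = 0.289) except after quantile normalization (−0.86, adjusted p = 0.0431).

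Catalase lay close to the threshold. Cat was at 6.27 and 6.59 on the CAR arrays and at 5.19 on the array labelled PaS, at percentiles of 92.6, 93.2 and 86.8. Both CAR values were more than 2-fold higher. The difference was 1.25 ± 0.30 (SE; 95% interval 0.47 to 2.02), with a limma adjusted p of 0.0532. It was called when the dimmer genes were left out of the fit, with each array centred on its median and with a robust prior (adjusted p of 0.0386, 0.0282 and 0.0381), and in quantile-normalized values it was 0.72 (adjusted p = 0.0809). Red cells are rich in catalase. The 11 measured erythroid markers had summed intensities of 133 and 317 on the CAR arrays and 626 on the array labelled PaS. Of that 626, Car1 gave 391. Both CAR arrays lay below the array labelled PaS for 10 of the 11 markers. The 1 marker above it on both was Alas2 (3.40 and 3.81 against 2.83). The part of red cells in the Cat value was not tested.

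For Hmox1 the CAR arrays disagreed. It was at 7.63 on CAR array 1, at 6.59 on CAR array 2 and at 6.45 on the array labelled PaS. CAR array 2 was much nearer to the pooled array than to the other CAR array, and the gap of 1.04 between the CAR arrays was the largest of the 10 enzymes. The difference of 0.66 had an interval from −0.56 to 1.89 (limma adjusted p = 0.380); it was 1.18 with CAR array 1 and 0.14 with CAR array 2. No call was made for Hmox1 under any alternative tested. Macrophages, which recycle heme, are a known site of Hmox1; their 15 markers summed to intensities of 302 and 354 on the CAR arrays and 1276 on the array labelled PaS. Both CAR arrays lay below the array labelled PaS for 12 of the 15 and above it for 1. The mean log2 intensity of the 15 was alike on CAR arrays 1 and 2, at 3.79 and 3.83. Single markers differed between the CAR arrays in opposite directions, Fcgr3 at 4.13 and 2.73 and Cd68 at 4.31 and 5.98. The part of macrophages in the Hmox1 values was not tested.

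**Figure D2:**
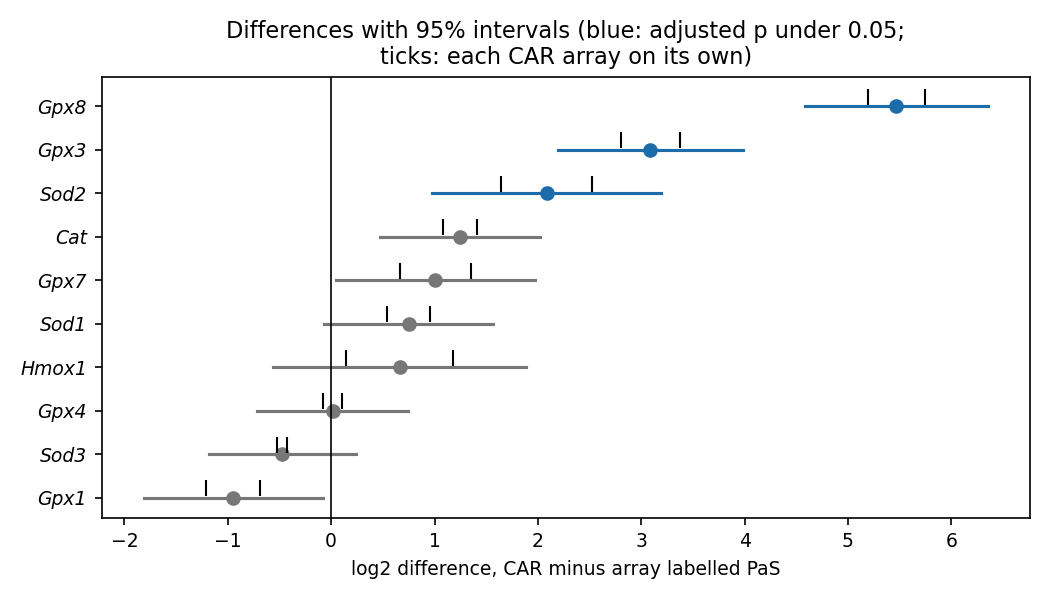
Log2 difference of CAR cells from the array labelled PaS for each enzyme (points) with limma's 95% interval (lines), and each CAR array's own difference (ticks). Gpx8, Gpx3 and Sod2, in blue, have an adjusted p under 0.05; the intervals of Sod1, Hmox1, Gpx4 and Sod3 cross 0.

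The CAR arrays also differed from each other in one direction. Of the 10 enzymes, 9 were brighter on CAR array 2, and Hmox1 alone was brighter on CAR array 1; over all genes 48.6% were brighter on CAR array 2, and 62.9% of those with a mean at or above the median level. The median gap between the CAR arrays was 0.54 for the enzymes and 0.27 for all genes. All SEs given here come from these 2 arrays.

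The other genes of the redox system were read from 13 lists, of which 220 genes were measured. In all, 33 (15.0%) were called higher in CAR cells and 14 (6.36%) lower, beside 8.56% and 6.42% of all genes, and their median difference was 0.26. Most list genes were bright: 160 and 169 were at or above the array median on CAR arrays 1 and 2, and 156 on the array labelled PaS. Of the 9969 genes with a mean at or above the median level, fitted alone, 2062 were called higher and 510 lower. The median difference of those 9969 genes was 0.37.

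Among other peroxidases, 1 of 7 (14.3%) was called higher and 1 (14.3%) lower, beside 8.56% and 6.42% of all genes. Prdx4, the peroxiredoxin of the endoplasmic reticulum, was at 6.97 and 7.37 on the CAR arrays and at 4.92 on the array labelled PaS (difference 2.25 ± 0.32, SE; limma adjusted p = 0.0209). Gpx5, known from the epididymis, was lower (limma difference −1.27, adjusted p = 0.0451), with all values below the median of their arrays. The list of oxidative folding in the endoplasmic reticulum, the compartment of Gpx7, Gpx8 and Prdx4, had 3 of 19 (15.8%) called higher and 0 lower. Its median was 0.85. On CAR arrays 1 and 2 and the array labelled PaS, 18, 19 and 18 of the 19 were at or above the array median. Of the 9969 genes with a mean at or above the median level, fitted alone, 2062 were called higher. In that fit 6 of this list were called higher, and the median difference of the 9969 genes was 0.37. The list holds chaperones as well as enzymes. Pdia3, a disulfide isomerase, was 3.72-fold higher; Txndc5 and the sulfhydryl oxidase Qsox1 were higher by 1.66 and 1.40 log2 units. P4hb, the general disulfide isomerase, was at 7.32 and 7.65 against 6.31 and was not called (limma adjusted p = 0.0596).

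The cofactor systems of the peroxidases held calls in both directions. Over all genes 8.56% were called higher and 6.42% lower. In glutathione synthesis and recycling, 2 of 16 genes (12.5%) were called higher and 1 (6.25%) lower: Idh1, a cytosolic source of NADPH, differed by 3.10 log2 units and Ggt5, which cleaves extracellular glutathione, by 2.06, while Taldo1 of the pentose phosphate pathway fell by 1.67 on the log2 scale. The median was 0.15. Glutathione transferases had 3 of 20 (15.0%) called higher, Gstm2 (2.41), Gstm7 (2.03) and Gstm1 (1.43), and 1 lower, Mgst2 (−2.63), with a median of 0.40. Mu-class transferases are closely alike in sequence, and whether their probe sets share signal was not tested. Of 18 thioredoxin and glutaredoxin genes 2 (11.1%) were called higher (Msrb3 at 1.98 and Glrx2 at 1.63) and 2 lower (Glrx5 at −1.59 and the selenoprotein Msrb1 at −1.41). Idh1, Gstm7 and Glrx2 were at percentiles 24.7, 5.3 and 5.8 on the array labelled PaS. Signal there cannot be told from background here, which leaves the sizes of their differences uncertain.

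The supply of selenium and copper was measured too. Of 23 genes of selenoprotein synthesis and other selenoproteins, 1 (4.35%) was called higher, Selenow (difference 1.91), and 1 (4.35%) lower, Dio2 (difference −1.70). Over all genes 8.56% were called higher and 6.42% lower. The list median was 0.26. Dio2 was at percentiles 40.4 and 29.8 on the CAR arrays, which leaves the size of its difference uncertain. In the list of copper supply and metallothionein 1 of 11 (9.09%) was called higher, Mt1 (1.40), and 0 lower. For NRF2 regulation and quinone detoxification 3 of 19 (15.8%) were called higher and 0 lower: Cbr3 (1.94), Park7 (1.90) and Nfe2l1 (1.88). Cbr3 and Park7 were at percentiles 14.7 and 30.2 on the array labelled PaS, which leaves the sizes of their differences uncertain. Nfe2l2, which encodes NRF2 and is named here outside the rule, after its values were seen, was at 7.88 and 8.18 against 7.47 and was not called (limma adjusted p = 0.247).

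Peroxisomal genes, which share their organelle with catalase, had 3 of 18 (16.7%) called higher and 0 lower, beside 8.56% and 6.42% of all genes. The higher ones were Pex13 (1.68), Phyh (1.37) and Hsd17b4 (1.34). The list median was 0.85, beside −0.10 over all genes and 0.37 over those with a mean at or above the median level. Both CAR arrays lay above the array labelled PaS for 14 of the 18, beside 37.4% of all genes. Sources of superoxide and peroxide divided: 4 of 23 (17.4%) were called higher and 4 (17.4%) lower. Their median was −0.65. Both CAR arrays lay below the array labelled PaS for 15 of the 23 and above it for 7. The shares over all genes were 46.8% and 37.4%. Lower in CAR cells were Ncf1 (−2.50), Rac2 (−2.42), Cybb (−2.26) and Ncf4 (−1.63), all subunits or partners of the phagocyte oxidase, which lay the same way as the leukocyte and neutrophil markers given above (Rac2 is itself in the leukocyte list); the part of such cells in these values was not tested. Higher were the matrix cross-linking amine oxidases Loxl1 (2.86), Lox (2.68) and Loxl3 (2.54) and the monoamine oxidase Maob (2.88), whose reactions release hydrogen peroxide. Maob was at percentile 8.5 on the array labelled PaS, which leaves the size of its difference uncertain.

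**Figure D3:**
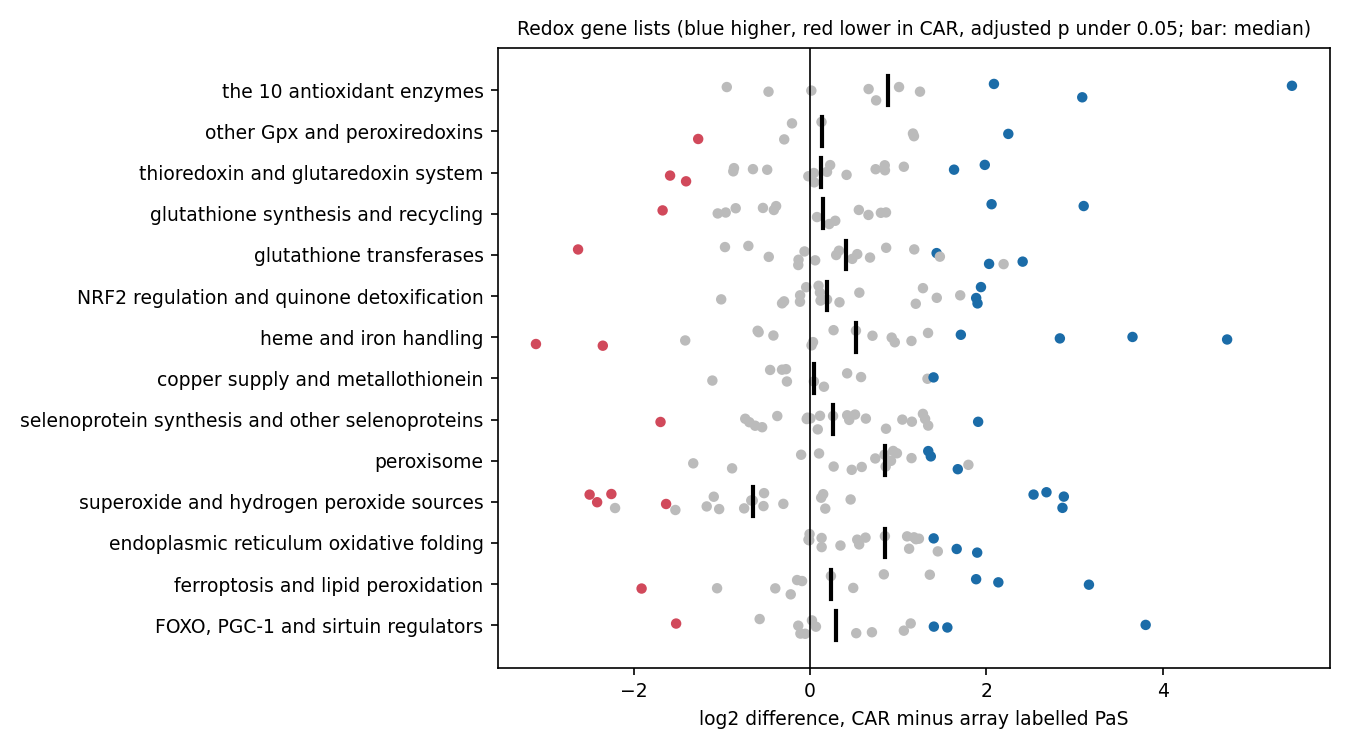
Log2 difference of CAR cells from the array labelled PaS for each measured gene of the 13 redox lists and of the 10 enzymes (points; blue called higher, red called lower, grey not called), with the list median as a bar. The enzymes' median is 0.88, and those of the peroxisome and endoplasmic reticulum lists are both 0.85.

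**Figure D4:**
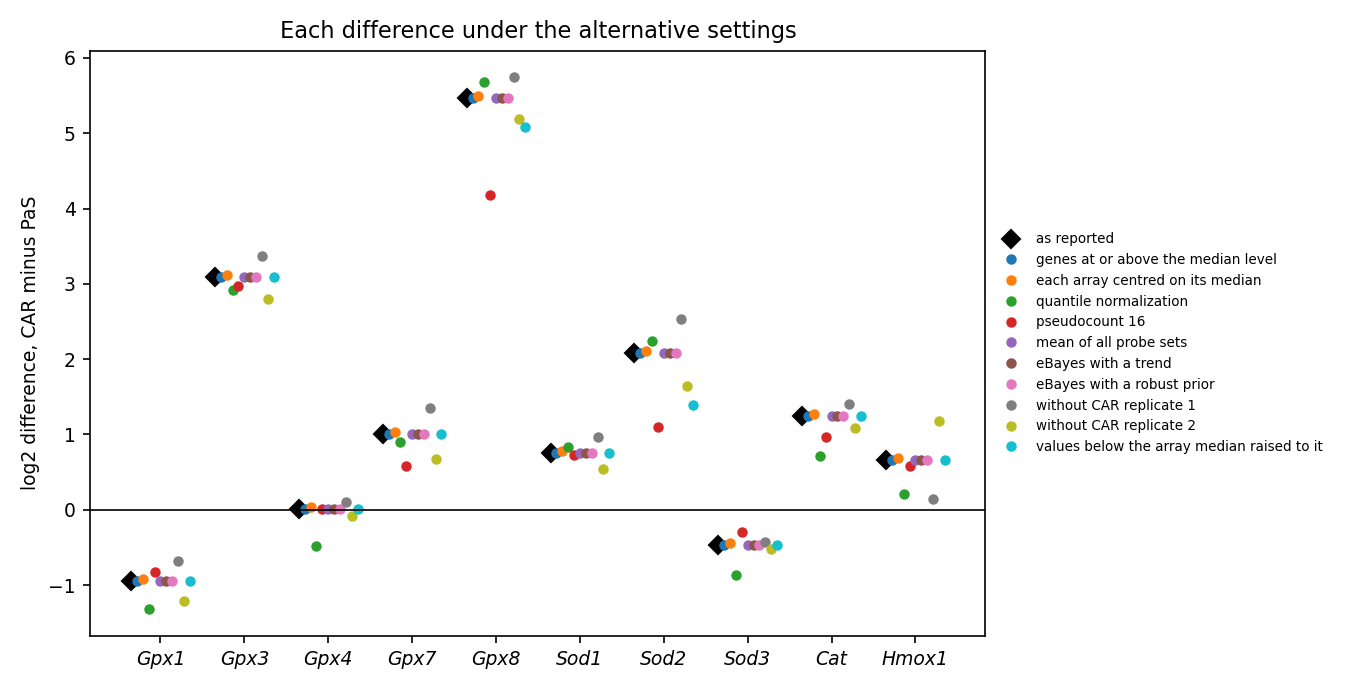
Log2 difference of each enzyme as reported (black diamonds) and under each alternative (coloured points). The points of Gpx8 stay between 4.18 and 5.74, whereas those of Gpx4 lie on both sides of 0.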

How the data were processed

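Amplified cDNA was read on 3 one-colour Affymetrix arrays (2 CAR, 1 PaS), grouped by the titles in the labels. The deposited values are linear signal intensities per probe set, made by the authors with Affymetrix Expression Console and RMA, per the submitters' processing notes; detection calls were not used, and no version or build is named in those notes. No value was negative or 0. The arrays did not share 1 spread of values. The 5th and 95th percentiles of genes were 1.87 and 6.69 on CAR array 1 and 1.69 and 6.93 on CAR array 2. On the array labelled PaS they were 2.40 and 6.16, a narrower range. The part of this narrower range in the differences of bright and dim genes was not tested. Log2 was taken without a pseudocount. Of 35556 probe sets, 21789 had 1 gene symbol in the platform annotation, 1621 several and 12146 were unnamed here; 21698 matched the RefSeq gene table (GRCm38.p6), which gave current symbols. The brightest probe set represented a gene, leaving 19938 genes.

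The difference CAR minus PaS came from lmFit and eBayes of limma 3.58.1 (R 4.3.3), two-sided, Benjamini-Hochberg adjusted over all 19938 genes, threshold 0.05. The fit has 1 residual and 4.20 prior degrees of freedom (prior SD 0.25): the spread comes from the CAR arrays, whose labels name separate mice, and the single PaS array is taken to vary alike. The number of arrays limits precision. The members and lists were chosen with earlier results of these data known, so their counts are descriptions. Named were all members, up to 4 called genes per list by size of difference, and sort genes; P4hb, Nfe2l2, Hpx, Alas2, Car1, Fcgr3, Cd68 and Mertk were named after their values were seen. Alternatives were a filter, 2 scalings, a pseudocount of 16, mean probe sets, 2 eBayes priors, each CAR array left out and, added later, a floor at array medians.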

Additional observations from a re-analysis of the deposited data

How the results depend on the processing

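No paired analysis was possible because the groups share only replicate number 1, on different mice. Of 100 alternative values for the enzymes, the direction reversed in 2, both of Gpx4: −0.48 after quantile normalization and −0.081 without CAR array 2 (0.11 without CAR array 1). The call was lost in 3 (Gpx3, Gpx8 and Sod2, with the pseudocount) and gained in 5 (Cat under 3 alternatives, Gpx1 and Sod3 under quantile normalization). With the pseudocount of 16, limma called 0 enzymes and 0 genes in either direction (lowest adjusted p 0.0539, with 5785 genes and 4 enzymes at an unadjusted p under 0.05); its prior had 1.76 degrees of freedom instead of 4.20. At least 2-fold higher in both CAR arrays were then 2 enzymes and 1036 genes, and 297 genes were at least 2-fold lower. Quantile normalization gave 2841 genes called higher and 2536 lower, 2 enzymes called lower and 1 at least 2-fold lower; it moved the median difference of all genes from −0.10 to 0.03. With the dimmer genes left out, 9969 genes were fitted. Of these, 510 were called lower and 531 were at least 2-fold lower, while 2062 were called higher and 2080 were at least 2-fold higher. The median difference of those genes was 0.37. With 1 CAR array left out, which leaves no test, 0 to 1 enzymes and 2319 to 2809 genes were at least 2-fold lower. The cause of these shifts was not tested. No detection calls were used, so dim values (Gpx8, Sod2 and Gpx7 on the array labelled PaS) limit the size of a fold. The same limit holds for dim list genes on that array, among them Idh1, Gstm7, Glrx2, Maob, Cbr3, Acsl4 and Park7.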

Other observations

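The list of heme and iron handling was chosen for its link to Hmox1, which degrades heme. Of 19 measured genes of heme and iron handling, 4 were called higher in CAR cells (21.1%, beside 8.56% of all genes) and 2 lower. On CAR arrays 1 and 2 and the array labelled PaS, 16, 18 and 17 of the 19 were at or above the array median. Of the 9969 genes with a mean at or above the median level, fitted alone, 2062 were called higher. Cp, ceruloplasmin, the plasma copper protein that oxidises iron, was at 9.19 and 9.31 on the CAR arrays against 4.52, or 26.6-fold higher (limma adjusted p = 0.0081). Trf, transferrin, was at 9.14 and 9.85 against 5.84, and Hp, haptoglobin, which captures free hemoglobin, at 10.24 and 10.51 against 7.54. Aco1, the iron-sensing aconitase, was higher by 1.71 log2 units. The lower genes, Ltf and Lcn2, are neutrophil granule proteins and are also in the neutrophil marker list; they fell by 3.11 and 2.35 on the log2 scale. Hpx, the plasma protein that binds heme, was at 3.28 and 2.79 against 3.02 and was not called.

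In the list of ferroptosis and lipid peroxidation, where Gpx4 acts, 3 of 13 genes (23.1%) were called higher and 1 (7.69%) lower. The shares over all genes were 8.56% and 6.42%. Pon3 and Pon2, paraoxonases that limit lipid oxidation, were higher by 3.16 and 2.14 log2 units, as was Acsl4, which activates polyunsaturated fatty acids, by 1.88. Acsl4 was at percentile 23.1 on the array labelled PaS, which leaves the size of its difference uncertain. Alox5, the leukocyte lipoxygenase, fell by 1.91. Among FOXO, PGC-1, sirtuin and hypoxia regulators 3 of 14 (21.4%) were called higher and 1 (7.14%) lower. Epas1, which encodes HIF-2 alpha, was at 10.49 and 10.67 against 6.77 (14.0-fold, limma adjusted p = 0.00955). Hif1a was higher by 1.56 and Sirt1 by 1.40, and Ppargc1a fell by 1.52 with all values below the median of their arrays.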
